A study of Homo sapiens with 12 samples.

Results

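The transcriptome of U87 cells treated with compound 5 was compared directly with that of cells treated with compound 1. U87, also called U87MG, is an established human glioblastoma line. Compound 5 was given at 5 µM and compound 1 at 30 µM, both for 72 h, in medium with 10% fetal bovine serum, and each treatment had 3 libraries of poly(A) RNA read as 50 bp pairs. The comparison therefore used 6 of the 12 libraries of the series. The other 6 were 3 of vehicle, whose values stand beside the results, and 3 of a compound numbered 4 at 10 µM. The compound 4 libraries shared the transformation described below and entered the filter on mean level and the estimate of spread. No difference from them is given here. Compound and dose differed together, so a difference below belongs to the pair of treatments and cannot be assigned to the molecules or to their concentrations. Taxodione, a diterpene from plants, and paclitaxel, a drug that stabilizes microtubules, stand in the series title; no label ties a number to either, and the numbers are kept here. The labels call the libraries of a treatment independent biological replicates.

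The line sets a limit on the model. U87 from the public repository is known to differ genetically from the tumour it was named for and lacks the CDKN2A region. CDKN2A, CDKN2B and MTAP were listed at 0 in all 12 libraries. The mesenchymal and glioma genes VIM, CD44 and CHI3L1 were high throughout, at 15.73 to 16.13, 15.01 to 15.35 and 12.78 to 13.17 rlog. The glial genes GFAP, at 5.63 to 5.79, and SLC1A3, at 9.24 to 9.67, were measured, while SOX2, S100B and AQP4 stayed below 1 and OLIG1 was listed at 0. With no counts, a low or 0 value does not show that a gene was not expressed: the cycling gene NUSAP1, chosen after its value was seen, was also below the level tested.

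Values are regularized logarithms (rlog), which are gene counts normalized between libraries and placed on the log2 scale after each gene is pulled towards its own mean. A difference of 1 is thus a doubling on this scale, and differences of weakly expressed genes are understated. A gene was tested where its rlog averaged 3 or more across all 12 libraries, which gave 15524 of the 62757 in the table. Each was tested with limma, which fits 1 mean per treatment and moderates the spread of a gene by that of others at the same level, and a gene was called when its Benjamini-Hochberg adjusted p was under 0.05. Read depth is unknown, since no counts were given. Within compound 1 the root mean square difference between libraries was 0.0636 to 0.0858 on the log2 scale, within compound 5 it was 0.0669 to 0.0996, and between the treatments it was 0.130 to 0.168. Replicate 1 of compound 5 was the library farthest from its group, and replicate 3 of compound 1 was the farthest in its own. The count of called genes given next, 4666, was 4882 without the first, 3610 without the second and 4370 without both.

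In total 4666 genes differed between the treatments, 30.1% of those tested, with 2158 higher with compound 5 (13.9%) and 2508 lower (16.2%). Counts of called members of a gene group, compound 5 against compound 1, stand beside these shares. Most differences were small: the median absolute size among called genes was 0.17 on the log2 scale, and 5 higher and 4 lower genes reached a difference of 1. The 3 libraries of a treatment did not overlap with the other 3 for 4332 of the called genes, beside 39.0% of all genes tested (18.8% higher and 20.2% lower). The call depended on level, with 7.9% of genes called at a mean rlog of 3 to 5 against 48.8% at 11 and above. At least 0.5 in size were 52 higher and 40 lower genes. Against vehicle the same fit called 5443 genes with compound 5 (35.1%; 15.9% higher and 19.2% lower) and 1688 with compound 1 (10.9%; 5.24% higher and 5.63% lower). The compound 1 count was 1043 without its replicate 1, 978 without its replicate 3, and 1056 and 849 without vehicle replicates 1 and 2. These comparisons share libraries with the direct one, so the vehicle values below are given side by side and add no support.

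**Figure D1:**
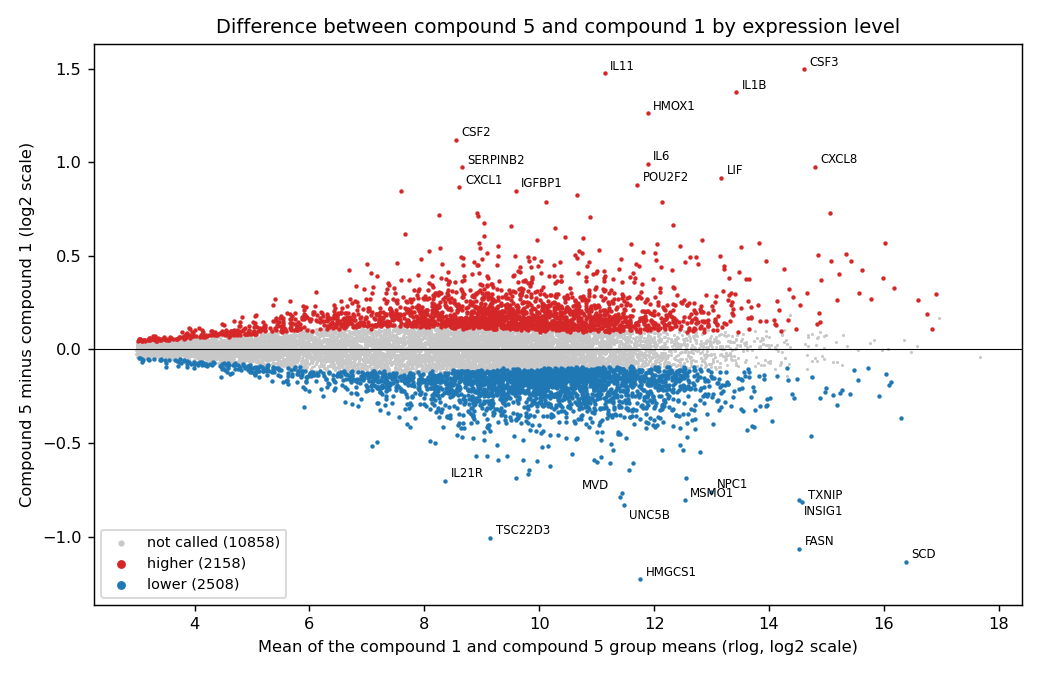
Difference between compound 5 and compound 1 (vertical axis, log2 scale) against the mean of both group means (horizontal axis, rlog) for the 15524 genes tested. Red points are the 2158 called higher with compound 5, blue points the 2508 called lower and grey points those not called; cytokine genes and HMOX1 form the upper edge and lipid synthesis genes the lower edge.

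Genes of sterol and fatty acid synthesis were lower with compound 5. Cells make cholesterol from acetyl-CoA through mevalonate and squalene, and fatty acids through acetyl-CoA carboxylase and fatty acid synthase. The SREBP transcription factors drive both sets when sterols in the endoplasmic reticulum are low, and INSIG proteins hold SREBP back when sterols are high. HMGCS1, the cytosolic HMG-CoA synthase that feeds the mevalonate pathway (ENSG00000112972.15, chr5:43289395-43313512, in GRCh38 as all positions here), had the most negative difference of all genes called. Its values were 12.48, 12.15 and 12.49 with compound 1 and 11.17, 11.22 and 11.05 with compound 5. The groups did not overlap, and replicate 2 was the lowest compound 1 library. The difference was -1.23 (SE 0.072, n = 3 per group, limma adjusted p = 7.75e-13), or 2.34-fold lower on the rlog scale, while the vehicle mean was 12.45 and compound 1 stood -0.073 from it.

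Of 9 mevalonate pathway genes, 7 were lower and 0 higher, with a median of -0.38 beside 1.88e-04 over all genes. MVD, the decarboxylase that forms isopentenyl diphosphate (ENSG00000167508.12, chr16:88651935-88663161), had 11.87, 11.67 and 11.92 with compound 1 against 10.98, 11.14 and 11.05 with compound 5, a difference of -0.77 (SE 0.053, adjusted p = 2.28e-11), and IDI1, which isomerizes that product, differed by -0.61. PMVK and GGPS1, at -0.018 and 0.045, did not pass; IDI1, PMVK and GGPS1 were chosen after their values were seen. Of 12 genes from squalene to cholesterol, 10 were lower and 0 higher (median -0.37). MSMO1, a sterol C4 demethylase (ENSG00000052802.13, chr4:165327623-165343160), had 12.997, 12.75 and 13.06 with compound 1 and 12.03, 12.21 and 12.15 with compound 5, a difference of -0.81 (SE 0.066). DHCR7, which makes cholesterol from 7-dehydrocholesterol, differed by -0.69. SQLE, the squalene epoxidase, differed by -0.61 and FDFT1, the squalene synthase, by -0.55; both were chosen after their values were seen. Over the 21 enzymes the median against vehicle was -0.16 for compound 1 and -0.61 for compound 5. By library the median member lay -0.098, -0.25 and -0.12 from the vehicle mean with compound 1 and -0.51, -0.64 and -0.66 with compound 5, so every compound 5 library was below every compound 1 library.

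Regulators and uptake genes went the same way, with 10 of 16 measured members lower and 0 higher (median -0.15). INSIG1 (ENSG00000186480.13, chr7:155297776-155310235) had 14.98, 14.81 and 14.98 with compound 1 and 14.02, 14.18 and 14.15 with compound 5, a difference of -0.81 (SE 0.056, adjusted p = 2.33e-11). NPC1, which exports cholesterol from lysosomes (ENSG00000141458.13, chr18:23506184-23586898), had 13.34, 13.30 and 13.50 with compound 1 against 12.58, 12.65 and 12.62 with compound 5, a difference of -0.76 (SE 0.044). Neither INSIG1 nor NPC1 passed between compound 1 and vehicle, at -0.0059 and 0.039. LPIN1, a phosphatidate phosphatase, differed by -0.47 and the SREBP gene SREBF1 by -0.35. The cholesterol exporter ABCA1, at -0.11, did not pass (chosen after its value was seen).

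Among 15 measured genes of fatty acid synthesis, 10 were lower and 0 higher (median -0.21). SCD, the stearoyl-CoA desaturase (ENSG00000099194.6, chr10:100347124-100364834), had values of 17.01, 16.76 and 17.08 with compound 1 and 15.85, 15.89 and 15.71 with compound 5, and the groups were apart by more than the range within either. The difference was -1.13 (SE 0.067, adjusted p = 7.75e-13), with compound 1 at -0.039 from vehicle. FASN, the fatty acid synthase (ENSG00000169710.9, chr17:82078333-82098332), had 15.08, 14.93 and 15.16 with compound 1 against 14.01, 13.99 and 13.96 with compound 5, a difference of -1.07 (SE 0.047, adjusted p = 3.21e-15). ACSS2, which makes acetyl-CoA from acetate, differed by -0.58, the carboxylase gene ACACA by -0.54 and the desaturase gene FADS2 by -0.50. The elongase genes ELOVL1, ELOVL6 and ELOVL7 did not pass, at 0.049, -0.07 and 0.057, and were chosen after their values were seen. No letters of the sterol regulatory element TCACNCCAC were found in the promoter windows of the 16 sterol enzymes with an entry in RefSeq (GRCh38.p14, 250 bases before to 50 after the start, both strands), beside 1.13% of all 35116 windows and 1.02% of those of genes tested.

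**Figure D2:**
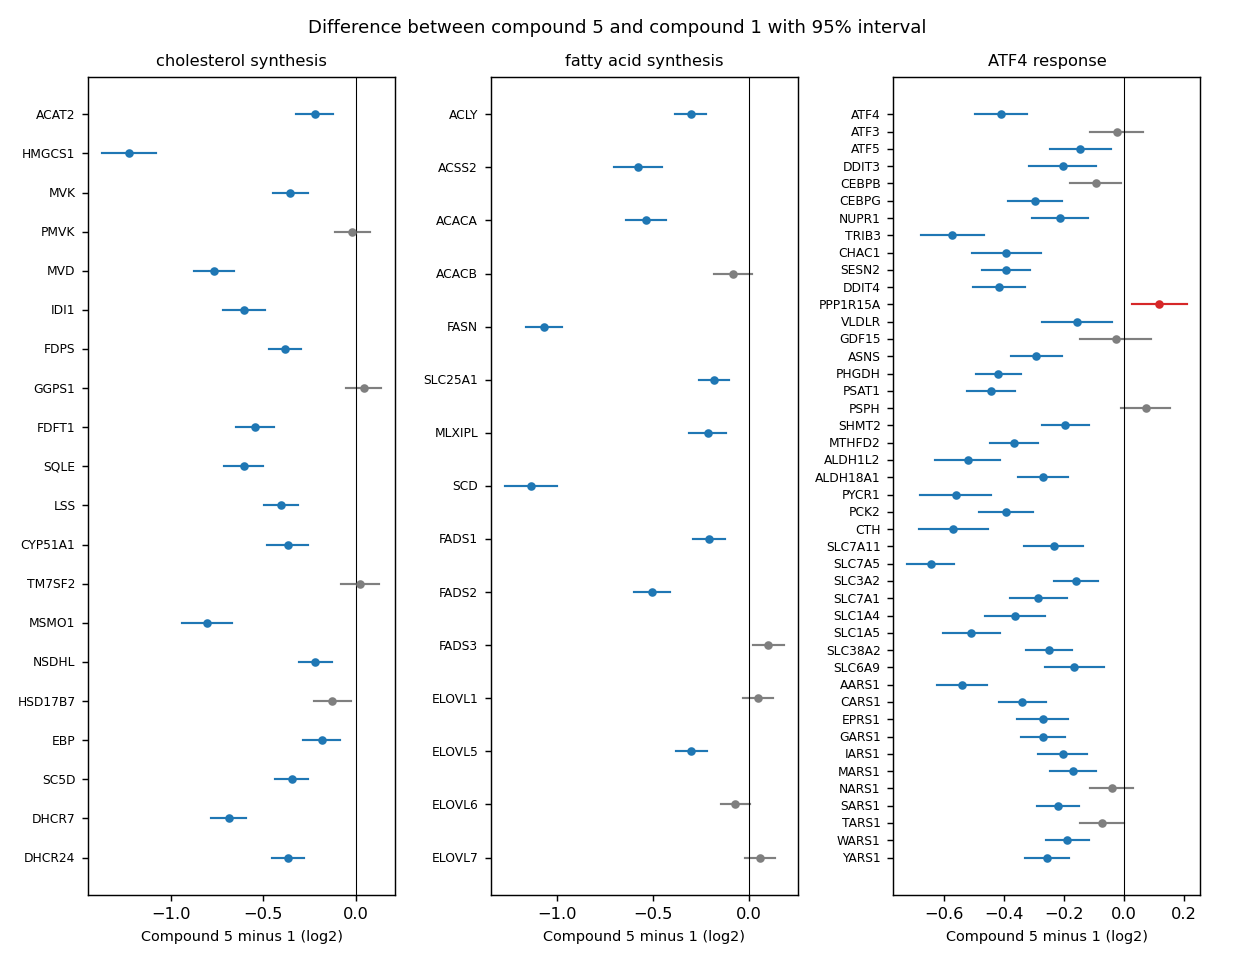
Difference between compound 5 and compound 1 (horizontal axis, log2 scale) for 20 genes of cholesterol synthesis and each measured gene of fatty acid synthesis and the ATF4 response. Points are limma differences and lines 95% intervals, not adjusted for the number of genes; blue marks genes called lower, red higher and grey not called, and 16 of 20, 10 of 15 and 37 of 44 genes are blue.

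Genes of the ATF4 response were also lower with compound 5. ATF4 is a transcription factor whose translation rises when amino acids are scarce or proteins misfold, and its targets make amino acids, import them and charge them onto tRNAs. In its target promoters it binds composite elements of the form TGATGNAA. Of 44 measured members, 37 were lower and 1 higher, with a median of -0.27. By library the median member stood 0.013, -0.0052 and 0.057 from vehicle with compound 1 and -0.28, -0.27 and -0.26 with compound 5. The compound 1 libraries lay around the vehicle mean and the compound 5 libraries lay close together below it.

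The promoters of AARS1 and CHAC1 are shown because both genes were lower and hold the element, in capitals; AARS1 encodes alanyl-tRNA synthetase and CHAC1 a glutathione-degrading enzyme. Sequences are from RefSeq (GRCh38.p14), 5′ to 3′, at chr16:70289457-70289756 on the minus strand for AARS1 and chr15:40953221-40953520 on the plus strand for CHAC1.
AARS1: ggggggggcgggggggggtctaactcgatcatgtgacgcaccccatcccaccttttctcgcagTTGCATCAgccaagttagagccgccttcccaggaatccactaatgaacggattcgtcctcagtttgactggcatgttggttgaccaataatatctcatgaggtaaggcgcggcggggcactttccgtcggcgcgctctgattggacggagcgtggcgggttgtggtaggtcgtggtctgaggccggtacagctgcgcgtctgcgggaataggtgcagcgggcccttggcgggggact
CHAC1: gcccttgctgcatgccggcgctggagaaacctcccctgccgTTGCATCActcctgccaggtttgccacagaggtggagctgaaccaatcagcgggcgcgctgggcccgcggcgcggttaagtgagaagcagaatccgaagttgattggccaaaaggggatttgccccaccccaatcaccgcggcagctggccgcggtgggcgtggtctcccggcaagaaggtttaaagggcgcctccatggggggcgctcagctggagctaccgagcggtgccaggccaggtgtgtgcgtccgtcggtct
The element lay 187 bases before the start of AARS1 and 209 before that of CHAC1, counted to its base nearest the 5′ end. It was present in 11 of 37 ATF4 response genes with a promoter entry (29.7%), against 3.62% of all windows and 2.2% of those of genes tested. Besides the genes shown, ASNS, IARS1, CARS1, SLC3A2, MARS1 and SLC7A1 hold it and were called lower, while ATF3, TARS1 and NARS1 hold it and were not called. Whether the element goes with the differences was not tested. A match is letters in a window, not a bound site.

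Amino acid transporters were lower in 8 of 8 cases. SLC7A5, the large neutral amino acid transporter (ENSG00000103257.9, chr16:87830023-87869488), had 11.86, 11.89 and 11.90 with compound 1 and 11.25, 11.22 and 11.24 with compound 5. The groups did not overlap, at a difference of -0.64 (SE 0.038, adjusted p = 7.75e-13). Of 11 genes of amino acid synthesis 10 were lower, with a median of -0.39. CTH, the cystathionine gamma-lyase, differed by -0.57 (SE 0.056), and PYCR1, which makes proline, by -0.56 (SE 0.058). PSPH, at 0.071, did not pass (chosen after its value was seen). Of 11 aminoacyl-tRNA synthetase genes 9 were lower, led by AARS1 at -0.54 (SE 0.041), with 12.77, 12.72 and 12.85 in compound 1 libraries and 12.24, 12.22 and 12.25 in compound 5 libraries. TRIB3, a pseudokinase induced by ATF4, differed by -0.57 (SE 0.051), and CHAC1, chosen after its value was seen, by -0.39. DDIT3, which encodes the stress factor CHOP, had 9.56, 9.51 and 9.57 with compound 1 against 9.24, 9.33 and 9.46 with compound 5, a difference of -0.20 (adjusted p = 0.00523), and neither compound passed against vehicle in it (0.15 with compound 1 and -0.055 with compound 5). ATF3 did not pass (-0.024, 95% interval -0.11 to 0.064). PPP1R15A, a phosphatase subunit that ends the stress response and the single member called higher, was at 0.12 and was chosen after its value was seen.

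In the unfolded protein response, which serves the endoplasmic reticulum, 9 of 20 genes were lower and 2 higher (median -0.058). Sensors and degradation factors were lower in 7 of 8 cases, including HERPUD1 at -0.34, the kinase gene EIF2AK3 at -0.32 and XBP1 at -0.26. Of 12 chaperones of the same compartment 2 were lower and 2 higher, close to the 16.2% lower and 13.9% higher over all genes tested.

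Interleukins, chemokines and related inflammatory genes were higher with compound 5 more often than lower. Cytokines of the interleukin 1 and interleukin 6 families, colony-stimulating factors and CXC chemokines are secreted by glioblastoma cells and are NF-kB and AP-1 targets in many cell types. The list also holds intracellular NF-kB genes and adhesion and prostaglandin genes. Of 34 measured genes, 21 were higher and 4 lower, with a median of 0.25. Its 8 NF-kB feedback genes were split, with 3 higher and 3 lower (median -0.031). The 4 lower ones, chosen after their values were seen, were the NF-kB subunit genes RELB at -0.30 and NFKB1 at -0.19, TNFAIP2 at -0.29 and the macrophage growth factor gene CSF1 at -0.14. Whether more cells expressed a gene or each cell held more of its RNA cannot be told apart in bulk samples.

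CSF3, the granulocyte colony-stimulating factor gene (ENSG00000108342.13, chr17:40015361-40017813), had the highest difference of all genes tested. It had 13.79, 14.12 and 13.68 with compound 1 and 15.20, 15.38 and 15.51 with compound 5, and the nearest libraries were more than 1 apart. The difference was 1.496 (SE 0.079, 2.82-fold on the rlog scale, adjusted p = 1.89e-13). The vehicle mean of 14.45 lay between the treatments, 0.91 below compound 5 and with compound 1 at -0.58 from it. CSF2, the granulocyte-macrophage factor gene (ENSG00000164400.6, chr5:132073790-132076170), had 7.95, 8.16 and 7.86 with compound 1 against 8.94, 9.13 and 9.27 with compound 5, a difference of 1.12 (SE 0.071), and compound 1 stood at -0.012 from vehicle.

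IL11, an interleukin 6 family cytokine (ENSG00000095752.7, chr19:55364389-55370463), had 10.36, 10.68 and 10.17 with compound 1 and 11.62, 11.94 and 12.08 with compound 5, a difference of 1.48 (SE 0.089, adjusted p = 1.17e-12). IL1B, which encodes interleukin 1 beta (ENSG00000125538.12, chr2:112829751-112836903), had 12.67, 13.03 and 12.51 with compound 1 against 14.01, 14.08 and 14.25 with compound 5, a difference of 1.38 (SE 0.082, adjusted p = 1.17e-12). In both genes replicate 2 was the highest compound 1 library and replicate 1 the lowest compound 5 library, and the groups did not overlap. IL6 (ENSG00000136244.12, chr7:22725884-22732002) differed by 0.99 (SE 0.055), and LIF, a cytokine of the same family (ENSG00000128342.5, chr22:30240447-30246851), by 0.92 (SE 0.054). Compound 1 was below vehicle in IL6 (-0.20), and its difference from vehicle did not pass in LIF (-0.14), IL11 (-0.22) or IL1B (-0.17).

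Of 8 measured chemokine genes 7 were higher, with a median of 0.58, and all 8 did not overlap between groups. Over all genes tested 13.9% were called higher, and 39.0% did not overlap, 18.8% with compound 5 above. CXCL8, the neutrophil chemokine interleukin 8 (ENSG00000169429.12, chr4:73740506-73743716), had 14.24, 14.52 and 14.15 with compound 1 and 15.14, 15.27 and 15.42 with compound 5, a difference of 0.97 (SE 0.068, adjusted p = 2.33e-11). CXCL1 (ENSG00000163739.5, chr4:73869393-73871242) had 8.18, 8.23 and 8.13 with compound 1 against 8.92, 9.12 and 9.10 with compound 5, a difference of 0.87 (SE 0.055), with compound 1 below vehicle at -0.26. CXCL5, CXCL3 and CXCL2 followed at 0.62, 0.60 and 0.57, chosen after their values were seen; reads of CXCL1, CXCL2 and CXCL3, which are close in sequence, may have been split between these genes in a way that is not stated. Letters of a general NF-kB element, on either strand, were in the promoter windows of 20 of 26 inflammatory genes with an entry (76.9%), in 70.7% of the windows of genes tested and in 58.7% of all windows. The matrix protease gene MMP3, a target of interleukin 1, had 11.70, 11.80 and 11.72 with compound 1 against 12.43, 12.57 and 12.59 with compound 5, a difference of 0.79 (SE 0.042).

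**Figure D3:**
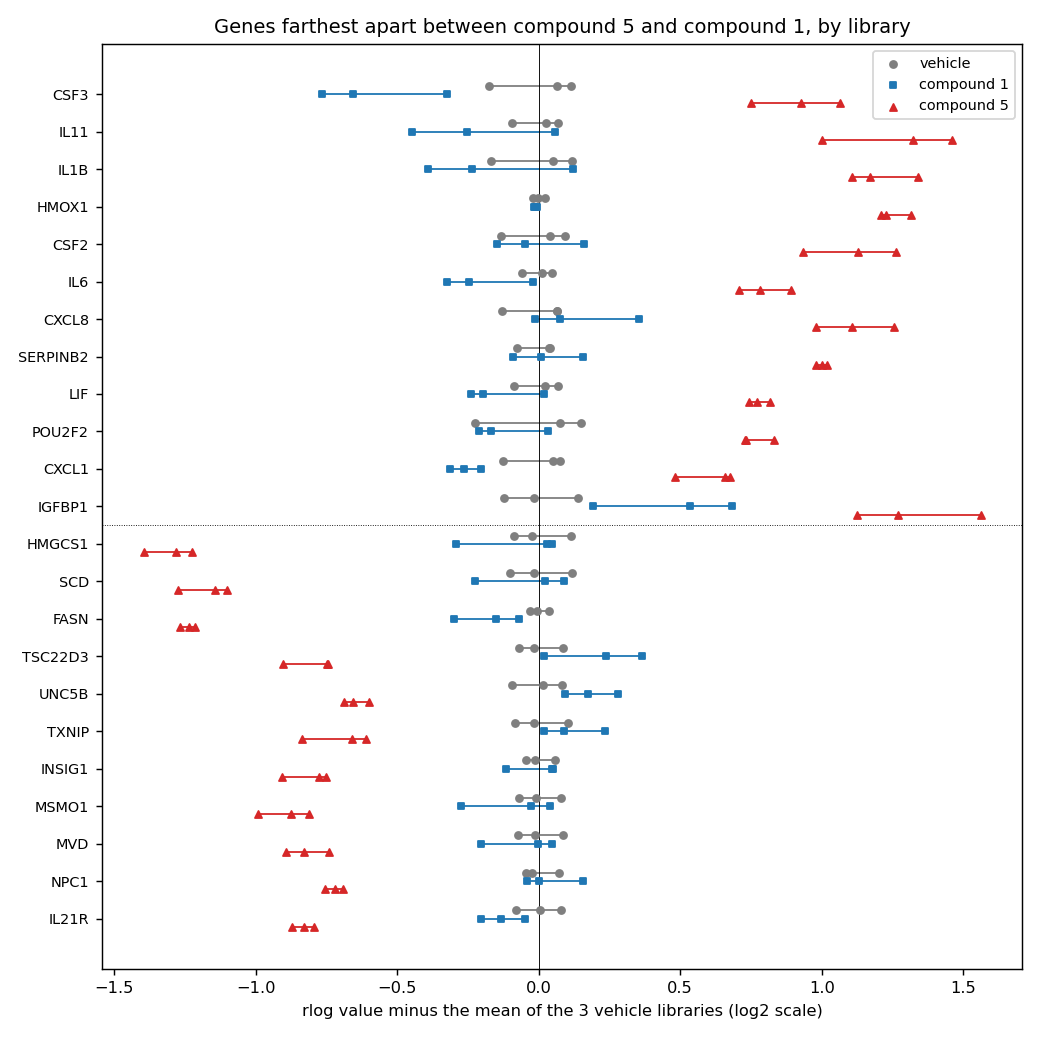
Values of the 12 genes farthest above and 11 of those farthest below zero in compound 5 minus compound 1, in each of 9 libraries, as rlog minus the mean of the 3 vehicle libraries (horizontal axis, log2 scale). Grey circles are vehicle, blue squares compound 1 and red triangles compound 5, with a line over the range of a group; compound 1 stays near vehicle in most genes, CSF3, CXCL1 and IGFBP1 being among those where it does not.

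In the plasminogen system, which dissolves fibrin and opens the matrix, 7 of 10 genes were higher and 1 lower (median 0.28). SERPINB2, an inhibitor of plasminogen activators (ENSG00000197632.9, chr18:63871692-63903890), had 8.15, 8.30 and 8.05 with compound 1 and 9.14, 9.12 and 9.16 with compound 5, a difference of 0.97 (SE 0.056, adjusted p = 7.72e-13). PLAU, the urokinase gene, had 11.98, 12.08 and 11.91 with compound 1 against 12.59, 12.65 and 12.72 with compound 5, a difference of 0.66 (SE 0.043). The tissue factor gene F3 differed by 0.42, and it was already above vehicle with compound 1, by 0.50. SERPINE2, at -0.18, was the lower member. Among 8 measured EGF family genes 5 were higher and 0 lower, all 5 of them ligands. HBEGF, a ligand of the EGF receptor, had 9.74, 9.89 and 9.53 with compound 1 against 10.54, 10.47 and 10.52 with compound 5, a difference of 0.79 (SE 0.058), with compound 1 at -0.26 from vehicle. TGFA differed by 0.53 and NRG1 by 0.30, while the receptor gene EGFR did not pass (-0.14, adjusted p = 0.0502).

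HMOX1, the heme oxygenase gene that frees iron and makes biliverdin (ENSG00000100292.18, chr22:35380361-35394214), had the smallest adjusted p of the genes named. Its values were 11.25, 11.26 and 11.25 with compound 1 and 12.58, 12.48 and 12.49 with compound 5, a difference of 1.26 (SE 0.039, 2.40-fold, adjusted p = 5.19e-19). The compound 1 libraries lay closer together than the compound 5 libraries, beside a vehicle mean of 11.27. The other heme and iron genes did not move one way, with 5 of 15 higher, HMOX1 included, and 5 lower. FTH1, the ferritin heavy chain, differed by 0.57 (SE 0.046); its processed pseudogene FTH1P20, chosen after its value was seen, differed by 0.57, and shared reads between them cannot be told apart. The transferrin receptor gene TFRC differed by 0.31, ALAS1, the first enzyme of heme synthesis, by 0.27, and the biliverdin reductase gene BLVRB by -0.29.

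NRF2, a transcription factor of oxidative and electrophile stress, has HMOX1 among its targets. A list of its other targets, which also holds the NRF2 gene NFE2L2 itself, KEAP1 and MAFG, was split. Of 22 measured, 5 were higher and 7 lower (median -0.057). NFE2L2 at -0.16 and MAFG at -0.17 were among the lower ones, and KEAP1, at -0.058, did not pass. These 3 were chosen after their values were seen. ABCC3, a conjugate exporter, differed by 0.33 and GCLM, the regulatory subunit of glutathione synthesis, by 0.21. The transketolase gene TKT differed by -0.33, OSGIN1 by -0.24 and the thioredoxin reductase gene TXNRD1 by -0.20. AKR1C1, at -0.10, did not pass (chosen after its value was seen) between the compounds, and it stood at -0.49 from vehicle with compound 1. The NRF2 element core TGACNNNGC was in 3 of 17 promoter windows of the list (17.6%), in 14.7% of those of genes tested and in 13.3% of all. Metallothioneins, which bind zinc and copper, were higher in 5 of 6 measured cases, with MT1E at 0.59 (SE 0.042), MT2A at 0.47, MT1X at 0.27, MT1F at 0.22 and MT1G at 0.12. MT1E had 10.50, 10.45 and 10.43 with compound 1 and 11.09, 11.09 and 10.99 with compound 5, without overlap; the MT1 genes are close paralogs. MT1M (0.045) did not pass, and the zinc transporter genes SLC30A1 (-0.13) and SLC39A10 (-0.21) were lower.

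Genes of DNA replication were higher with compound 5 in 45 of 47 cases, with 0 lower and a median of 0.32. In late G1 the origin recognition complex, CDC6 and CDT1 load the MCM helicase, and E2F transcription factors drive these genes through elements such as TTTCCCGC and TTTGGCGC. By library the median member stood -0.077, 0.0066 and -0.20 from vehicle with compound 1 and 0.31, 0.18 and 0.20 with compound 5. Replicate 3 of compound 1 was the lowest and replicate 1 of compound 5 the highest, and the list medians against vehicle lay on opposite sides of it, at -0.085 and 0.23.

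The promoters of CLSPN, UHRF1 and CDC6 are shown because these genes are among the 5 replication genes with the highest differences and hold an E2F element, in capitals. Sequences are from RefSeq (GRCh38.p14), 5′ to 3′, at chr1:35769929-35770228 on the minus strand for CLSPN, chr19:4909251-4909550 on the plus strand for UHRF1 and chr17:40287629-40287928 on the plus strand for CDC6.
CLSPN: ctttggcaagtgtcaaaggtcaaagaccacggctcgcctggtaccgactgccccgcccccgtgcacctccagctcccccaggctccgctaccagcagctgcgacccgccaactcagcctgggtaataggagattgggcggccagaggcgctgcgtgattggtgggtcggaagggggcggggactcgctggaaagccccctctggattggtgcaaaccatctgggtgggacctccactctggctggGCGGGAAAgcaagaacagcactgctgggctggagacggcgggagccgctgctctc
UHRF1: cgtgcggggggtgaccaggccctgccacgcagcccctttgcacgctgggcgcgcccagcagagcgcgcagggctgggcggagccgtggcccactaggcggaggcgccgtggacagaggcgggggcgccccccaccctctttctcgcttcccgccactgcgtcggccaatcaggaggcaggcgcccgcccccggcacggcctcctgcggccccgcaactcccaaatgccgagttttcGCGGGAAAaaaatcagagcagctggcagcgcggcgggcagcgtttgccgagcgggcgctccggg
CDC6: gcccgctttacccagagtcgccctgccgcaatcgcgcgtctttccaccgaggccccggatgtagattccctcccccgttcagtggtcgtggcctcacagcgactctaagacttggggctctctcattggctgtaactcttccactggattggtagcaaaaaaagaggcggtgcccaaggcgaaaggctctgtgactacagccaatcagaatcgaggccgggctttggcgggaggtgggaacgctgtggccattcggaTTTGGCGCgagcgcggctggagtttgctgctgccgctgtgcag
Either letter form on either strand was present in 20 of 39 replication genes with a promoter entry (51.3%), against 2.27% of all windows and 3.24% of those of genes tested; matches on opposite strands can share letters. In CLSPN the match spanned the start, in UHRF1 it began 14 bases before it and in CDC6 7 bases after it.

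Helicase and licensing genes were higher in 17 of 18 cases. MCM10, which starts the helicase, had 7.92, 8.05 and 7.74 with compound 1 and 8.65, 8.62 and 8.59 with compound 5, a difference of 0.72 (SE 0.062, adjusted p = 1.85e-09). CDC6 had 9.67, 9.88 and 9.45 with compound 1 against 10.35, 10.16 and 10.25 with compound 5, a difference of 0.58 (SE 0.073), with compound 1 at -0.18 and compound 5 at 0.40 from vehicle. DTL, which marks CDT1 for degradation, differed by 0.54. Of 24 genes of polymerases and nucleotide supply 23 were higher, and RPA2, at 0.029, did not pass (chosen after its value was seen). UHRF1, which recruits the maintenance DNA methyltransferase, had 9.24, 9.30 and 8.98 with compound 1 against 9.99, 9.70 and 9.81 with compound 5, a difference of 0.66 (SE 0.071). CLSPN, the checkpoint mediator claspin, differed by 0.60 (SE 0.055). All 5 genes of G1/S cyclins and E2F factors were higher, with E2F2 at 0.46 and CCNE1 at 0.37, chosen after their values were seen. CCND1, the G1 cyclin D1, had 13.47, 13.59 and 13.34 with compound 1 against 13.99, 13.79 and 13.76 with compound 5, a difference of 0.38 (adjusted p = 7.94e-06). MYC did not pass (0.01, 95% interval -0.078 to 0.098).

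Homologous recombination and Fanconi genes, which repair broken and crosslinked DNA, were higher in 21 of 27 cases with 0 lower (median 0.21). XRCC2, a recombination factor, differed by 0.49, the nuclease gene EXO1 by 0.42, the helicase gene BRIP1 by 0.40 and BRCA1 by 0.37. Of 34 mitotic genes 18 were higher and 1 lower, with a median of 0.11. MYBL2, a transcription factor of the cell cycle, differed by 0.51, the kinetochore gene NDC80 by 0.32 and CDK1 by 0.29. ECT2 (-0.10, chosen after its value was seen) was the lower member. The proliferation marker MKI67 did not pass (-0.0072, 95% interval -0.13 to 0.12), and TOP2A differed by 0.12 (adjusted p = 0.0261). The mitotic list stood below vehicle with compound 1, at -0.10, -0.078 and -0.19 by library, and at -0.0075, -0.061 and -0.0052 with compound 5. Without replicate 3 of compound 1 the mitotic count was 9 in place of 18, while the replication count was at least 43 with any library left out.

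Of 27 p53 targets, 12 were higher and 2 lower (median 0.076). Counts in this paragraph stand beside 13.9% higher and 16.2% lower over all genes tested. PLK2 differed by 0.35, AEN by 0.25 and TP53I3 by 0.23, while CCNG1 was at -0.28 and the repair gene XPC at -0.23. CDKN1A, the p21 gene, did not pass between the compounds (0.036, 95% interval -0.046 to 0.12) and lay below vehicle with both, at -0.20 and -0.16. In the BCL2 family, which sets the threshold of apoptosis, 4 of 13 genes were higher and 2 lower. BID differed by 0.27, the survival gene MCL1 by 0.21, BAX by 0.14 and BCL2L1 by 0.10, against BMF at -0.18 and BCL2L2 at -0.11. Of 10 measured histone genes 3 were higher and 1 lower, with H1-2 at 0.39; most such mRNAs lack the poly(A) tail that the libraries selected.

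**Figure D4:**
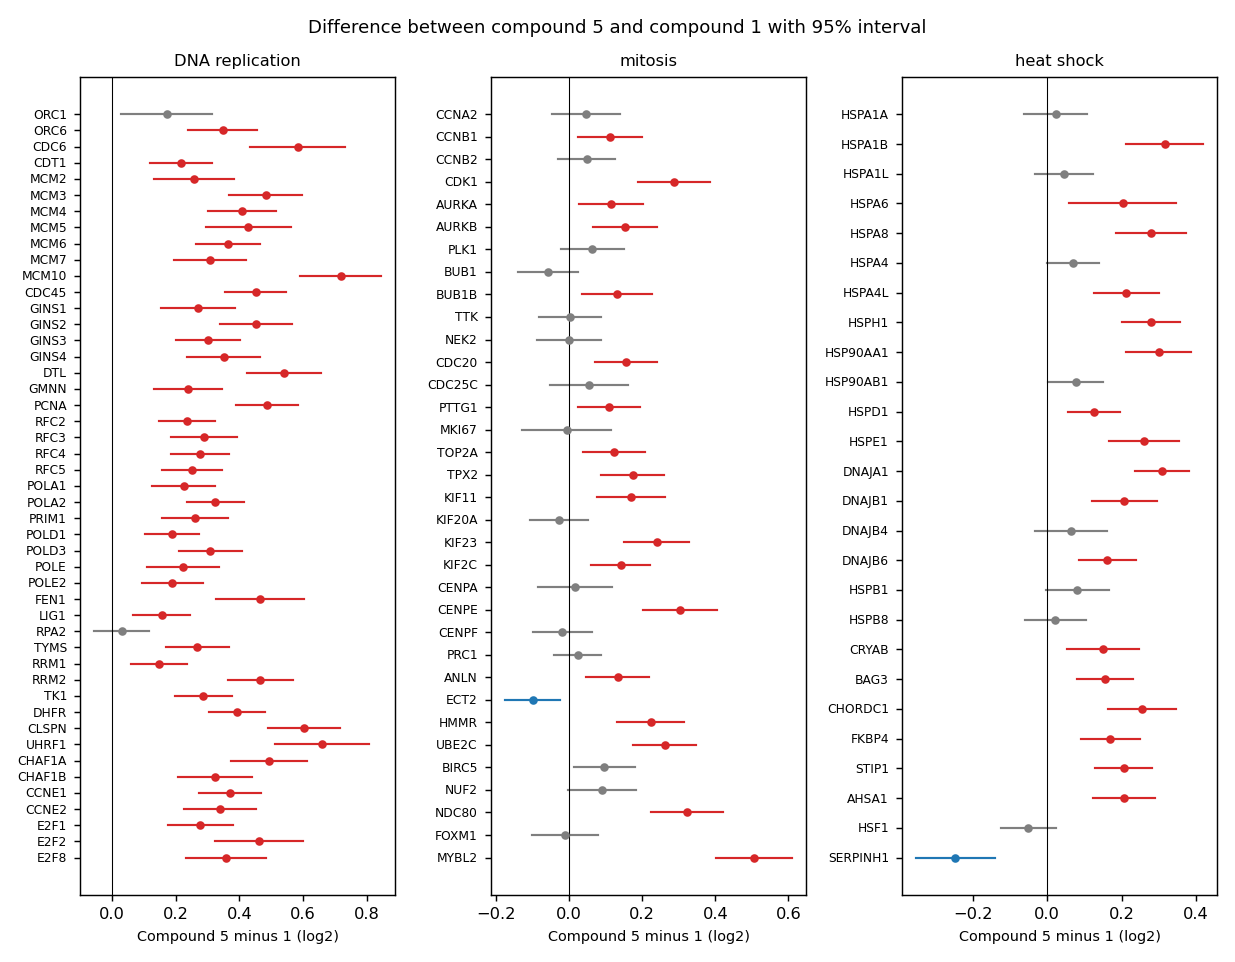
Difference between compound 5 and compound 1 (horizontal axis, log2 scale) for each measured gene of DNA replication, mitosis and heat shock. Points are limma differences and lines 95% intervals, not adjusted for the number of genes; red marks genes called higher, blue lower and grey not called, with 45 of 47, 18 of 34 and 17 of 26 genes red.

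Heat shock genes were higher with compound 5 than with compound 1, in 17 of 26 cases with 1 lower, and a median of 0.17. They encode chaperones that the factor HSF1 induces through repeats of GAA and TTC units. Against vehicle the compound 1 libraries stood at -0.16, -0.14 and -0.16 by the median member, and those of compound 5 at -0.017, -0.0081 and 0.021. Called lower than vehicle were 17 of the 26 genes with compound 1 and 3 with compound 5. Over all genes tested 5.63% were lower than vehicle with compound 1 and 19.2% with compound 5.

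The promoters of DNAJA1, an HSP40 partner of HSP70, and HSPA8, the constitutive HSP70, are shown because both genes were called and hold paired heat shock units GAANNTTC, in capitals. Sequences are from RefSeq (GRCh38.p14), 5′ to 3′, at chr9:33025023-33025322 on the plus strand for DNAJA1 and chr11:123062087-123062386 on the minus strand for HSPA8.
DNAJA1: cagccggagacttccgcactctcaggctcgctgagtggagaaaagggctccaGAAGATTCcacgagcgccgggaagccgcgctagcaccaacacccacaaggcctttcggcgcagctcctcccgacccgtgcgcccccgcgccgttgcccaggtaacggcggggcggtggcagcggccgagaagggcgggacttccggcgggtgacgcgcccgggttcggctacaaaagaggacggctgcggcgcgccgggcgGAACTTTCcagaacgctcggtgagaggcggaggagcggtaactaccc
HSPA8: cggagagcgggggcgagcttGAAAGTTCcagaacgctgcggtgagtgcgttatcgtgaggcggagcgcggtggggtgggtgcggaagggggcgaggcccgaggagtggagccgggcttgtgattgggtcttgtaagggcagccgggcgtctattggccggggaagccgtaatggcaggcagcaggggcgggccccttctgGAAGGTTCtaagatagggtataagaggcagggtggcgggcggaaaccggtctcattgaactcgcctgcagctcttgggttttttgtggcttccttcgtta
Such units were present in 11 of 23 heat shock genes with a promoter entry (47.8%), against 6.77% of all windows and 5.06% of those of genes tested. Besides the genes shown, HSPA1B, HSPA6, DNAJB6 and CHORDC1 hold units and were called higher. HSPA1A, HSPA1L, HSPB1 and HSPB8 hold units and were not called, and SERPINH1 holds a unit and was lower. Whether the units go with the differences was not tested. DNAJA1 had 11.94, 11.99 and 11.91 with compound 1 and 12.25, 12.23 and 12.29 with compound 5, a difference of 0.31 (SE 0.035, adjusted p = 1.92e-07), with compound 1 at -0.23 from vehicle. HSPA8 had 14.30, 14.35 and 14.18 with compound 1 against 14.64, 14.45 and 14.57 with compound 5, a difference of 0.28 (SE 0.046), with compound 1 at -0.35 and compound 5 at -0.072 from vehicle. Both genes were thus lowest with compound 1. HSP90AA1, an HSP90 gene, differed by 0.30 and HSPH1, an HSP110 gene, by 0.28. HSPA1B differed by 0.32 and HSPA1A, at 0.022, did not pass (chosen after its value was seen); their sequences are almost the same, so the value of either gene is uncertain. HSPA6, the strictly inducible HSP70, had 6.89, 6.94 and 6.90 with compound 1 against 7.03, 7.09 and 7.22 with compound 5, a difference of 0.20 (adjusted p = 0.0291). SERPINH1, a collagen chaperone, was the lower member at -0.25.

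Of 31 proteasome subunits 12 were higher and 0 lower with compound 5 than with compound 1 (median 0.061). Called lower than vehicle were 21 of 31 with compound 1 and 11 with compound 5, beside 5.63% and 19.2% of all genes tested. PSMC5 differed by 0.22 and PSMD12 by 0.21. Of 34 ribosome biogenesis genes 9 were higher and 3 lower, led by the snoRNP gene NOP56 at 0.50 and BOP1 at 0.36. The 30 nuclear-encoded respiratory chain genes had 13 higher and 0 lower, at a median of 0.058 and no more than 0.25, in UQCRQ.

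The mitochondrially encoded mRNAs were higher with compound 5 in 12 of 13 cases, with a median of 0.45. These 13 mRNAs encode core subunits of the respiratory chain and the ATP synthase and are copied from both strands of the mitochondrial genome as long precursors. MT-CYB, cytochrome b, had 13.46, 13.56 and 13.58 with compound 1 and 14.08, 14.13 and 14.10 with compound 5, a difference of 0.57 (SE 0.078, adjusted p = 3.34e-06). MT-CO3 differed by 0.51, MT-ATP6 by 0.51 and MT-ND3 by 0.49, and MT-ND1 by 0.43. MT-ND6, the single mRNA from the light strand, differed by 0.23, and MT-ND5 did not pass (0.18, adjusted p = 0.089). By library the median member stood -0.14, 0.033 and 0.097 in vehicle, 0.068, 0.14 and 0.28 with compound 1 and 0.48, 0.66 and 0.62 with compound 5. The spread within vehicle was wide, and all compound 5 libraries lay above all vehicle and compound 1 libraries.

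Noncoding RNAs, most of them retained in the nucleus and read as a sign of the nuclear share of a sample, were set beside these mRNAs. Of 9 measured, 1 was higher, SNHG14 at 0.22, and 1 lower, NORAD at -0.43, beside 13.9% and 16.2% over all genes tested. NEAT1 (0.18) and MALAT1 (0.19) did not pass, and both compounds stood above vehicle in NEAT1, compound 1 by 0.54 and compound 5 by 0.72. The median member stood at 0.15, 0.07 and 0.27 with compound 1 and at 0.11, 0.15 and 0.17 with compound 5, so the groups overlapped. With the list's mean level in each library as a covariate, 4930 genes were called and 4660 of the 4666 calls remained. That centred level was 0.022, -0.018 and 0.19 with compound 1 and -0.019, 0.10 and 0.085 with compound 5. With averages so alike, the covariate could hardly move the differences between the compounds, so the calls that remained do not test the nuclear share. Against vehicle that setting called 3533 genes in place of 5443 with compound 5 and 466 in place of 1688 with compound 1.

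Of 38 genes of glycolysis and hypoxia, 19 were called higher than vehicle and 1 lower with compound 1, and 28 higher and 2 lower with compound 5. The shares over all genes tested were 5.24% higher and 5.63% lower with compound 1, and 15.9% and 19.2% with compound 5. By library the median member stood 0.17, 0.21 and 0.046 from vehicle with compound 1 and 0.30, 0.21 and 0.22 with compound 5. Between the compounds 15 were higher with compound 5 and 5 lower, at a median of 0.057. ANGPTL4, a lipase inhibitor induced by hypoxia and by PPAR factors, had 7.21, 7.32 and 6.99 with compound 1 and 8.32, 7.87 and 7.87 with compound 5, a difference of 0.85 (SE 0.083, adjusted p = 1.66e-08). SLC2A1, the glucose transporter GLUT1, had 11.42, 11.61 and 11.12 with compound 1 against 12.02, 11.64 and 11.64 with compound 5; the groups almost met at their nearest libraries, and the difference was 0.38 (SE 0.087). PFKFB3, which activates glycolysis, differed by 0.38, and the transporter gene SLC2A3 was lower at -0.38. DDIT4, an mTOR inhibitor that the ATF4 list also holds, differed by -0.42. VEGFA did not pass (0.061). The hypoxia response core ACGTG was in 17 of 33 promoter windows of the list (51.5%), in 25.3% of those of genes tested and in 21.4% of all.

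TXNIP, an arrestin that responds to glucose and limits its uptake (ENSG00000265972.6, chr1:145992435-145996600), was lower with compound 5. It had 14.97, 14.89 and 15.11 with compound 1 and 14.04, 14.26 and 14.22 with compound 5, a difference of -0.82 (SE 0.059, adjusted p = 4.30e-11). Its paralog ARRDC4 differed by -0.20, while ARRDC2 (0.044) and ARRDC3 (0.044) did not pass, and KLF10 was higher at 0.26. IGFBP1, which binds insulin-like growth factors outside the cell (ENSG00000146678.10, chr7:45888357-45893668), had 9.23, 9.38 and 8.89 with compound 1 against 10.26, 9.82 and 9.96 with compound 5, a difference of 0.85 (SE 0.1, adjusted p = 3.11e-07). Its libraries were spread widely in both groups, with replicate 3 of compound 1 the lowest, and compound 1 was itself 0.47 above vehicle. IGFBP3 did not pass between the compounds (-0.15, 95% interval -0.31 to 0.015), though compound 1 stood 1.09 and compound 5 0.95 above vehicle. IRS2, an insulin receptor substrate, differed by -0.37, IGFBP5 by -0.20 and the receptor gene IGF1R by -0.19.

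Clock genes were lower with compound 5 in 11 of 17 cases, with 0 higher and a median of -0.15. The clock is a feedback loop in which CLOCK and BMAL1 drive PER, CRY and the output factors DBP, TEF and HLF. PER1 differed by -0.45 (SE 0.041), TEF by -0.38 (SE 0.04), NR1D2 by -0.32, DBP by -0.26 and NFIL3 by -0.26. CLOCK and BMAL1, at 0.018 and 0.057 and chosen after their values were seen, did not pass. TSC22D3, which encodes the glucocorticoid-induced leucine zipper (ENSG00000157514.18, chrX:107713221-107777342), had 9.68, 9.47 and 9.81 with compound 1 and 8.54, 8.70 and 8.70 with compound 5. The groups did not overlap, and the difference was -1.01 (SE 0.061, adjusted p = 1.25e-12), with compound 1 0.21 above vehicle. Glucocorticoid-responsive genes were split, with 4 of 10 higher and 4 lower, TSC22D3 included. ANGPTL4, given above, was the highest member at 0.85, and SGK1 was at 0.15. KLF9 was at -0.33 and the receptor gene NR3C1 at -0.15, and FKBP5 did not pass (-0.0064).

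**Figure D5:**
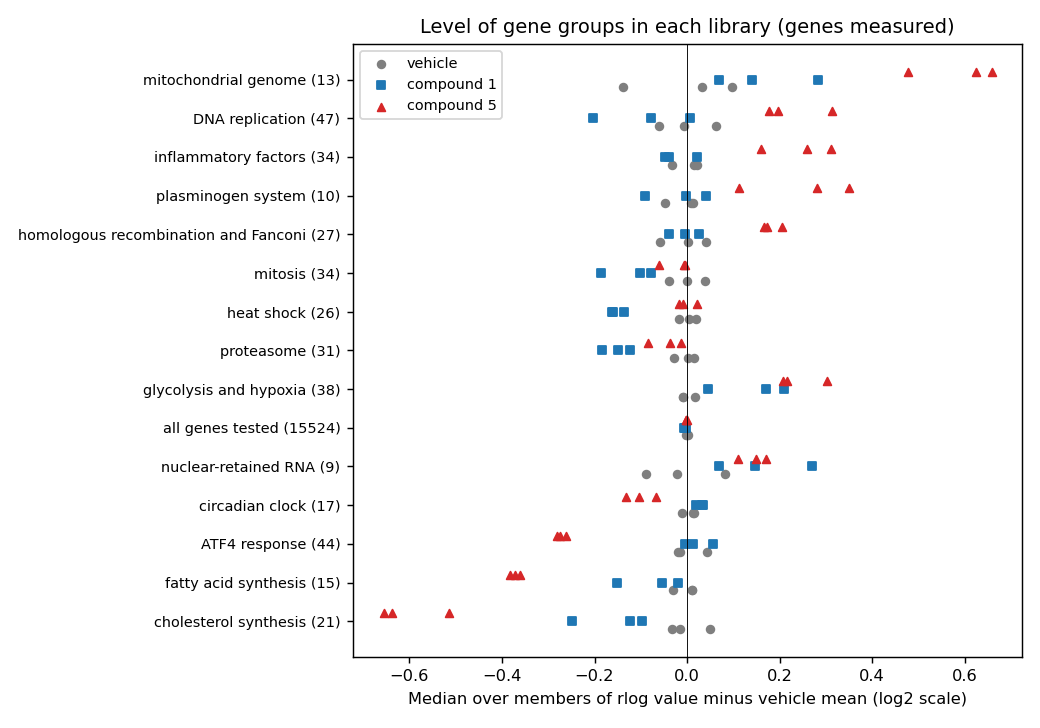
Median over the measured members of each gene group of the rlog value minus the vehicle mean (horizontal axis, log2 scale), in each of 9 libraries; grey circles are vehicle, blue squares compound 1 and red triangles compound 5. Compound 5 libraries stand apart from vehicle in lipid synthesis, the ATF4 response, replication and mitochondrial mRNAs, while in heat shock and proteasome genes the compound 1 libraries stand apart; nuclear-retained RNA overlaps between the compounds.

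Of 20 matricellular genes 9 were lower and 1 higher, with the thrombospondin gene THBS2 at -0.48, the fibrillin gene FBN1 at -0.46, EFEMP1 at -0.37 and SPARC at -0.26. Collagen chains were split, 3 of 21 higher and 6 lower: COL11A1 was at -0.50, COL6A3 at -0.36 and COL1A2 at -0.22, against COL1A1 at 0.32 and COL7A1 at 0.30. Collagen maturation enzymes had 4 of 18 higher, led by LOXL4 at 0.43, and 7 lower, including LOXL2 at -0.23. Of 15 matrix proteases and inhibitors 3 were higher, MMP3 included, and 5 lower: TIMP1 was at 0.37, and MMP14 (-0.30) and MMP2 (-0.25) were among the lower ones. Integrin subunits had 1 of 15 higher, ITGA2 at 0.24, and 4 lower, led by ITGB1 at -0.26. Mesenchymal regulators had 0 of 13 higher and 5 lower, with the cadherin gene CDH13 at -0.36, TWIST1 at -0.34 and SNAI2 at -0.28. These shares stand beside 13.9% higher and 16.2% lower over all genes tested. Compound 1 was called higher than vehicle in 12 of 18 collagen maturation genes with 0 lower, in 7 of 20 matricellular genes with 1 lower and in 5 of 21 collagen chains with 0 lower. With compound 5 the same lists had 12 higher and 3 lower, 5 higher and 5 lower, and 7 higher and 3 lower. Over all genes tested 5.24% were higher and 5.63% lower than vehicle with compound 1, and 15.9% and 19.2% with compound 5.

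Signalling targets were mixed. Counts here and in the next paragraph stand beside 13.9% higher and 16.2% lower over all genes tested. Of 17 YAP targets 2 were higher and 7 lower, with CCN1 at 0.41 and ARHGEF17 at -0.29, and of 20 contractile genes 6 were higher and 4 lower, with FHL2 at 0.36, TPM1 at 0.33 and MYLK at -0.32. Immediate early genes had 10 of 25 higher and 8 lower: IER3 was at 0.38 and JUN at 0.30, and EGR1 at -0.49. MAP kinase feedback genes were higher in 6 of 16 cases and lower in 1, with DUSP6 at 0.47 and SPRY4 at 0.37, both targets of ERK signalling. PDGF and VEGF family genes had 2 of 11 higher and 3 lower, led by the receptor gene PDGFRB at -0.36. Interferon-stimulated genes had 2 of 26 higher and 3 lower, below the shares over all genes in both directions, with STAT2 at -0.35. Lysosome and autophagy genes had 8 of 31 in each direction, with the kinase gene ULK1 at -0.45.

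Genes of the microtubule system bear on the paclitaxel of the series title, since paclitaxel binds beta tubulin. Of 11 measured tubulin genes 4 were higher and 0 lower: TUBG1 was at 0.25, TUBB6 at 0.23, TUBA4A at 0.21 and TUBB4B at 0.17. TUBB3, whose product is linked to taxane resistance in tumours, had 5.42, 5.36 and 5.42 with compound 1 and 5.37, 5.43 and 5.39 with compound 5 and did not pass (95% interval -0.066 to 0.07). TUBB (0.068) and TUBB2A (0.053) did not pass either; tubulin genes are close paralogs. Of 20 microtubule regulators 2 were higher and 9 lower, with the tubulin deacetylase gene HDAC6 at -0.30, MAP4 at -0.26 and the destabilizer STMN1 at 0.25. Among multidrug pumps, ABCC3 and ABCG2 (0.19) were the 2 higher of 8 measured, with 0 lower, and ABCB1, the pump best known for paclitaxel, was below the level tested.

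Some of the genes farthest apart belonged to none of these groups. UNC5B, a netrin receptor (ENSG00000107731.12, chr10:71212570-71302864), had 11.88, 11.80 and 11.98 with compound 1 and 11.11, 11.05 and 11.02 with compound 5, a difference of -0.83 (SE 0.046, adjusted p = 4.93e-13), and compound 1 was 0.18 above vehicle. IL21R, a cytokine receptor (ENSG00000103522.17, chr16:27402162-27452042), had 8.71, 8.64 and 8.79 with compound 1 against 7.97, 8.05 and 8.01 with compound 5, a difference of -0.70 (SE 0.05). POU2F2, the transcription factor OCT2 (ENSG00000028277.22, chr19:42086110-42196585), had 11.21, 11.41 and 11.17 with compound 1 against 12.12, 12.11 and 12.21 with compound 5, a difference of 0.88 (SE 0.066, adjusted p = 9.45e-11). All 3 are among the 12 largest rises and falls, which were chosen from genes whose groups did not overlap.

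Markers of other cell types differed in level. Of 15 leukocyte markers 11 were listed at 0 or had a mean rlog below 3, as were 8 of 14 epithelial, 6 of 14 neuronal, 5 of 12 endothelial and 6 of 8 oligodendrocyte markers. Summed on the linear scale, neuronal markers came to 2160 to 2260 with compound 1 and 2260 to 2370 with compound 5, and leukocyte markers to 253 to 288 and 297 to 307. Epithelial markers came to 360 to 366 and 357 to 378, endothelial markers to 376 to 388 and 348 to 366, and oligodendrocyte markers to 2070 to 2220 and 2220 to 2300. ELAVL4, CD3D and KRT5 were listed at 0 in all libraries. Neuronal markers that passed the filter on level numbered 8 of 14 and endothelial ones 7 of 12. SNAP25, a synaptic gene, was higher with compound 5 at 0.55 and CSF1R at 0.17, while MAP2 (-0.20), SYT1 (-0.17) and the endothelial gene VWF (-0.31) were lower. Their part in the results above was not tested.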

How the data were processed

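The deposited table holds log2 values that the authors made with the rlog transformation of DESeq2 1.30.1 from reads aligned with STAR 2.7.10a to GRCh38, per the submitters' processing notes. The sources used here do not give how reads were counted, on which annotation and strand, or with what filter; where strand was ignored, antisense partners share reads. Of 62757 genes, 25759 were listed at 0 throughout. Since no counts were given, no count model was run. Gene positions came from GENCODE 29 and promoters from RefSeq.

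The 15524 genes averaging 3 or more were fitted by treatment over the 12 libraries, with a mean-variance trend, in limma 3.58.1 (R 4.3.3). p-values were Benjamini-Hochberg adjusted over all of them, and the procedure was tested on simulated data. Alternatives changed the filter, centring, variance model and libraries. The comparison and the gene lists were chosen with earlier results of these data known. Named genes were the 12 largest rises and falls without overlap, up to 5 called members per list by size, up to 2 not called where most of a list was not called, 20 fixed genes and all members of lists with at most 13 measured; others are marked, and a few are not reported here. Of the 351 genes this gives, 239 were called. For the 12 largest rises and falls, lack of overlap was thus a condition of choice and not a result.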

Additional observations from a re-analysis of the deposited data

How the results depend on the processing

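Over the alternatives, other than the added size limit, 3556 to 5274 genes were called between the compounds, and 3610 to 4882 with 1 library left out. Requiring a difference of at least 0.5 as well left 92 genes, 52 higher and 40 lower, with 145 for compound 5 and 17 for compound 1 against vehicle. It left 8 lower genes of cholesterol synthesis, 5 of fatty acid synthesis, 7 of the ATF4 response and 0 of the clock, and 12 higher inflammatory factors, 5 replication, 1 mitotic, 3 mitochondrial, 0 heat shock and 0 recombination genes. With the nuclear RNA level as a covariate, 3533 genes were called for compound 5 and 466 for compound 1 against vehicle. The compound 1 count against vehicle was 800 with no filter, 2734 with library weights and 849 to 1582 with 1 library left out. Mitotic genes called higher numbered 9 to 20 with 1 library left out. MEG3, not called at -0.064 (adjusted p = 0.605), was 0.145 (adjusted p = 0.037) without both libraries farthest from their groups, a setting chosen after seeing the data; the cause was not tested. Removing GC and length trends, also chosen then, gave 4781 calls, with values for 97.24% of genes. Of the 239 named genes called, between 214 and 239 stayed called under each alternative other than the size limit; the stricter filter on the mean left 2 of them untested.

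Replicate numbers did not pair the libraries: same-numbered deviations of compound 1 and compound 5 correlated at 0.0771, -0.215 and 0.0178, and not every library correlated best with its own number. With the replicate block 4690 genes were called, 4581 of them shared, and all 239 named calls stayed. Read depth is unknown, and the transformation shrinks low genes most.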

Other observations

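Genes that belong to no list above, chosen after their values were seen, gave further values. IL36B, an interleukin 1 family cytokine, was higher with compound 5 at 0.83 (SE 0.048, limma adjusted p = 7.72e-13), with 10.17, 10.17 and 10.37 in compound 1 libraries and 11.03, 11.06 and 11.11 in compound 5 libraries. STC1, a secreted hormone, had 14.69, 14.87 and 14.53 with compound 1 against 15.44, 15.40 and 15.45 with compound 5, a difference of 0.73. FAM111B, a protease gene of S phase, had 8.60, 8.73 and 8.35 with compound 1 against 9.44, 9.25 and 9.18 with compound 5, a difference of 0.73, and CDC25A, the phosphatase that activates CDK2, differed by 0.53. PI3, the elastase inhibitor elafin, differed by 0.71, HAS1, a hyaluronan synthase, by 0.59 and the complement gene C3 by 0.55. These genes were chosen among called genes whose 3 libraries of a treatment did not overlap with the other 3, so that separation is no result.

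In other genes compound 1 was the treatment farther from vehicle. There were 358 such protein-coding genes outside the lists, called between the compounds and between compound 1 and vehicle with opposite signs and without overlap. Of all 15524 genes tested, 4666 (30.1%) were called between the compounds and 1688 (10.9%) between compound 1 and vehicle. Whether 358 is many or few for these conditions was not tested. PAPPA2, a protease of insulin-like growth factor binding proteins, had 9.96, 9.90 and 9.96 with compound 1 and 9.33, 9.27 and 9.14 with compound 5 around a vehicle mean of 9.48. HSPG2, the perlecan gene, stood 0.60 above vehicle with compound 1 and 0.15 with compound 5. TNXB, a tenascin, stood 0.51 above vehicle with compound 1 and -0.085 from it with compound 5. AKR1B1, the aldose reductase, had 15.37, 15.39 and 15.43 with compound 1 and 15.77, 15.85 and 15.85 with compound 5, at -0.40 and 0.022 from vehicle, and PPIF, the mitochondrial cyclophilin, stood at -0.38 and 0.12. These values rest on a choice made on the same libraries and were not tested further.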
